A study of Saccharomyces cerevisiae with 4 samples.

Results

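The genes described here form the core of the yeast pheromone response and its regulators. They are GPA1, STE4 and STE18, the subunits of the receptor-coupled G protein; STE5, the scaffold; FUS3 and KSS1, the mitogen-activated protein (MAP) kinases; STE12, the transcription factor; FAR1, the cell cycle inhibitor; and SST2 and MSG5, which damp the signal. They were chosen by systematic identifier, with earlier results of these data known. All 10 were found among the 6679 genes of the deposited table. Poly(A) RNA was measured in exponentially growing SK1 yeast in rich medium, with and without high levels of spliced HAC1 mRNA. HAC1 codes for the activator of the unfolded protein response. The vehicle group was 2 libraries given ethanol in volumes matched to inducer at 20 and 40 nM. The inducer group was 2 libraries at 20 and 40 nM of a compound abbreviated bEST. All 4 libraries carry the genotype label WT and the cell type label vegetative; how HAC1 was driven, the mating type and the ploidy are not stated in the labels. Whether a group's libraries derive from separate cultures is not stated either, so p-values measure only the spread between these libraries, which may be technical. The fit took the 2 libraries of a group as replicates, without a term for dose. The spread in the inducer group therefore also holds any effect of dose.

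In haploid yeast, a pheromone from the opposite mating type binds a receptor that frees the beta and gamma subunits of the G protein from the alpha subunit. The freed subunits recruit the scaffold and a kinase relay ending in Fus3 and Kss1, which release the transcription factor Ste12 from its repressors and activate the arrest factor Far1. In diploid cells a repressor made from both mating types keeps several of these genes low, among them GPA1, STE4, STE18, STE5, FUS3 and FAR1.

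Values are RPKM, read numbers scaled by the length of the gene and the depth of the library, and are given in the order vehicle matched to 20 nM, vehicle matched to 40 nM, inducer 20 nM, inducer 40 nM. Recovered depth ranged from 1183200 to 4161200 reads, lowest in the 20 nM inducer library. HAC1 itself was at 487, 528, 5922 and 3712 RPKM, which places the driven gene high in the libraries labelled with inducer. Markers of meiosis and sporulation stayed at or below 4.81 RPKM in every library for all 7 genes, and NDT80 and SPO11 were each listed at 0 in 1 library. In 2 of the 7 both inducer libraries lay above both vehicle libraries, and in 1 both lay below. Of 4 markers of vegetative growth 0 lay above and 1 below in this way. Among the 5317 genes tested below, 23.0% lay above and 23.9% below, so the counts of these 2 sets are no result about them. The 7 markers of meiosis and sporulation were too low to be tested. Markers of both mating types were present and higher with inducer. The summed level of 5 a-cell markers was 781, 416, 1912 and 3093 RPKM, with all 5 higher in both inducer libraries. Most of this sum was MFA1, at 745, 370, 1558 and 2695 RPKM. The summed level of 5 alpha-cell markers was 47.7, 37.2, 837 and 481 RPKM, again with all 5 higher and none at 0 in any library. The lowest of them with vehicle, MF(ALPHA)1, was at only 1.26 and 1.55 RPKM there. The part of these cell type markers in the results below was not tested, and in bulk RNA more cells that express a gene and more RNA per cell cannot be told apart.

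Of the 10 genes 5 rose with the inducer, namely FAR1, STE18, GPA1, FUS3 and SST2, and 0 fell. Among all 5317 tested genes 2.48% rose and 0.733% fell at the same threshold, an adjusted p under 0.05 in a limma fit on log2(RPKM + 1). The median log2 fold change of the 10 genes was 1.62, against -0.02 over all tested genes. As the 10 genes were chosen with earlier results of these data known, setting them beside all tested genes is a description only. In 8 of the 10 both inducer libraries lay above both vehicle libraries, which held for 23.0% of tested genes. In 0 of the 10 both lay below, against 23.9% of tested genes, and in KSS1 and MSG5 the groups overlapped. Together the 10 genes summed to 117, 101, 348 and 361 RPKM. All 10 passed the filter of a mean of at least 5 RPKM, but FAR1, with a vehicle mean of 2.53 RPKM, passed only through its inducer libraries. It therefore had to be higher there, and its part in these counts and in the median is a description only.

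**Figure D1:**
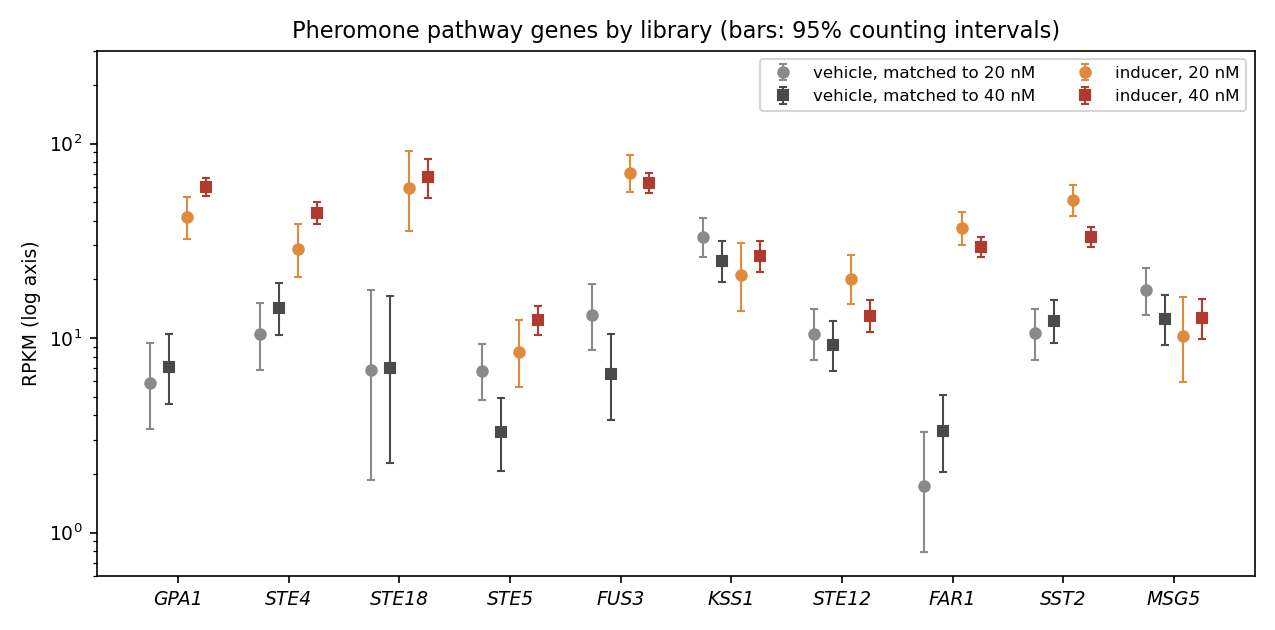
RPKM of each of the 10 genes in each of the 4 libraries, on a log axis; points are libraries and bars are Poisson intervals of 95%, which cover counting error only. FAR1 rises from the lowest vehicle levels (1.73 and 3.32 RPKM) to 36.8 and 29.4 RPKM, while the points of KSS1 and MSG5 overlap between groups.

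Promoters of 5 of the genes are shown, 4 of them of genes that rose and the last, of KSS1, of a gene with no detected change. The promoter of GPA1, which also rose, is not shown and held no TGAAACA. Each is the 300 bases before the coding start in the RefSeq R64 assembly, written 5′ to 3′ on the strand of the gene. R64 is the S288C genome, so SK1 differences are not included. Capitals mark TGAAACA, the core of the Ste12 binding site, or its reverse complement TGTTTCA. The intervals are chrII:192151-192450 on the plus strand for FUS3, chrX:585768-586067 on the plus strand for STE18, chrXII:1041367-1041666 on the minus strand for SST2, chrX:126329-126628 on the minus strand for FAR1 and chrVII:575098-575397 on the plus strand for KSS1.
FUS3: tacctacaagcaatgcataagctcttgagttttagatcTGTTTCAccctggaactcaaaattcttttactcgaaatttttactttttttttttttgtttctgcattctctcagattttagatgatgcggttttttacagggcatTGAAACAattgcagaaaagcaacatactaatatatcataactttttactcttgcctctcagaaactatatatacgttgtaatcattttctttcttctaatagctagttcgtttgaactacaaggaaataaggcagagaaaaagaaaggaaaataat
STE18: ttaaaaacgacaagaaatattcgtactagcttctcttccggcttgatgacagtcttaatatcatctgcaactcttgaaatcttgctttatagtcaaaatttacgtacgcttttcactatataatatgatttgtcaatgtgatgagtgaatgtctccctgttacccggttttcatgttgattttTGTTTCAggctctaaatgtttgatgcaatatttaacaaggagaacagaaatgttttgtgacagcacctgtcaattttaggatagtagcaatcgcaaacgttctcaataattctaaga
SST2: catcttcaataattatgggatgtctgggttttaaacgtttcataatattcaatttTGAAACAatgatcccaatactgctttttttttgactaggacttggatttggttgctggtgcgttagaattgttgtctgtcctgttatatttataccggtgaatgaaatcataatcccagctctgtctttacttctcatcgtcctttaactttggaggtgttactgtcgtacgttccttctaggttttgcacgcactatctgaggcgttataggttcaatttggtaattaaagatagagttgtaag
FAR1: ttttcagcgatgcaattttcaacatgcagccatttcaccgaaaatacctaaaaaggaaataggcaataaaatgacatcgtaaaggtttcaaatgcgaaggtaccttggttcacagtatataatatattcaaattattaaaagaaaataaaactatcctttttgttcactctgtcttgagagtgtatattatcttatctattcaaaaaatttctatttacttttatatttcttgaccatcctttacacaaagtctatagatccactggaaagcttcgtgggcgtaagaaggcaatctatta
KSS1: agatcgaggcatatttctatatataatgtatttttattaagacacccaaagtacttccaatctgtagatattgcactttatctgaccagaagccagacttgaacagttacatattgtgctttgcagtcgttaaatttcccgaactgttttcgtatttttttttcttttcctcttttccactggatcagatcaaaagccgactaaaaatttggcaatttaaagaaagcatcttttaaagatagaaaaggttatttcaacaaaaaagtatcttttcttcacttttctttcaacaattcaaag
Searched on both strands, TGAAACA was present in 3 of the 10 promoters, those of FUS3, STE18 and SST2, and in 7.20% of 6001 nuclear promoters of the same length. FUS3 held 2 matches, beginning 262 and 156 bases before the coding start, whereas 0.37% of all promoters held 2 or more. The match of STE18 began 117 bases and that of SST2 245 bases before the start. The letters CAGCGTG and TACGTG, cores of sites bound by Hac1, were in 0 of the 10 promoters, against 1.23% and 8.22% of all promoters. These are matches of letters in a fixed window and no measure of binding.

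The G protein genes moved by different amounts. GPA1 (YHR005C), the alpha subunit, which holds the free subunits back in unstimulated cells, stood at 5.86, 7.08, 41.7 and 59.9 RPKM. Both inducer libraries lay several fold above both vehicle libraries, with the higher one at 40 nM. The fitted log2 fold change of GPA1 was 2.78 (SE 0.28, adjusted p = 0.00441). STE18 (YJR086W), the gamma subunit and the shortest of the 10 coding sequences at 333 bases, stood at 6.87, 7.05, 58.8 and 66.9 RPKM. Its vehicle values rest on 4 and 5 reads and its inducer values on 19 and 76, yet the groups were well apart (log2 fold change 3.002, SE 0.24, adjusted p = 0.00211). STE4 (YOR212W), the beta subunit that passes the signal on, stood at 10.4, 14.3, 28.6 and 44.0 RPKM. The groups did not overlap, but STE4 did not pass the threshold (log2 fold change 1.46, SE 0.30, adjusted p = 0.0550, 95% interval 0.74 to 2.18). STE4 was called in 5 of 14 alternative settings and not in the other 9. Those that called it included libraries scaled to equal medians (adjusted p = 0.0496) and a limma-voom fit to recovered reads (adjusted p = 0.0194). The rest were both fits with a term for pairs of libraries and the fit without the vehicle library matched to 40 nM. In these no gene's own spread counted. Those that did not call it gave adjusted p up to 0.286, with every gene tested.

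The scaffold and the kinases diverged. STE5 (YDR103W), which holds the kinase relay together at the membrane, stood at 6.79, 3.28, 8.47 and 12.4 RPKM, the lowest mean of the 10 in the inducer group. The 20 nM inducer library lay just above the higher vehicle library, and the change did not pass (log2 fold change 0.96, SE 0.45, adjusted p = 0.360, 95% interval -0.11 to 2.03). FUS3 (YBL016W), the MAP kinase of mating, stood at 13.1, 6.53, 70.8 and 62.8 RPKM. Its vehicle libraries differed by more than its inducer libraries did in relative terms, and the groups were far apart (log2 fold change 2.72, SE 0.33, adjusted p = 0.00785). KSS1 (YGR040W), the MAP kinase also known for filamentous growth, stood at 33.1, 25.0, 21.0 and 26.4 RPKM. Here the 40 nM inducer library lay between the vehicle libraries, with a log2 fold change of -0.28 (SE 0.26, adjusted p = 0.665, 95% interval -0.89 to 0.33). The upper end of the KSS1 interval lay below the lower end of the FUS3 interval, 1.93 to 3.50, although the difference between the genes was not itself tested.

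The outputs of the cascade are an arrest factor and a transcription factor. FAR1 (YJL157C), which inhibits the G1 cyclin-dependent kinase and helps orient growth toward a partner, stood at 1.73, 3.32, 36.8 and 29.4 RPKM, from 9, 21, 106 and 298 reads. The inducer mean was 13.1 times the vehicle mean, with a log2 fold change of 3.30 (SE 0.37, adjusted p = 0.00518). On the log2 scale this value was 3.72 with a pseudocount of 0.1 and 2.34 with 5, as its vehicle level is low. Because FAR1 passed the filter only through its inducer libraries, it had to be higher there, and its p is a description only. FAR1 had the largest fitted change of the 10 with a pseudocount of 1 and all libraries, but not in every setting. With a pseudocount of 5 STE18 was higher at 2.502, and without the vehicle library matched to 20 nM FAR1 (2.97) came after FUS3 (3.17) and STE18 (2.99). STE12 (YHR084W), the transcription factor at the end of the cascade, stood at 10.5, 9.20, 20.2 and 13.1 RPKM. Both inducer libraries were above both vehicle libraries by a small margin at 40 nM, and the change did not pass (log2 fold change 0.67, SE 0.32, adjusted p = 0.370, 95% interval -0.09 to 1.44).

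The regulators that damp the signal did not move alike. SST2 (YLR452C), which speeds the return of the alpha subunit to its inactive form, stood at 10.6, 12.3, 51.0 and 33.3 RPKM. The groups were apart, with the higher inducer value at 20 nM (log2 fold change 1.77, SE 0.29, adjusted p = 0.0224). MSG5 (YNL053W), a phosphatase of MAP kinases, stood at 17.6, 12.6, 10.2 and 12.6 RPKM. Its values overlapped between groups, with a log2 fold change of -0.36 (SE 0.31, adjusted p = 0.635, 95% interval -1.10 to 0.37). Without the 20 nM inducer library 3 of the 10 genes rose, because FUS3 (adjusted p = 0.0613) and SST2 (adjusted p = 0.0593) no longer passed. With every gene of the table tested, including 585 listed at 0 throughout, limma called 0 of 6679 genes (896 at an unadjusted p under 0.05, 6 of them among the 10). With only those genes left out, a choice made after seeing the data, the same 5 genes passed.

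**Figure D2:**
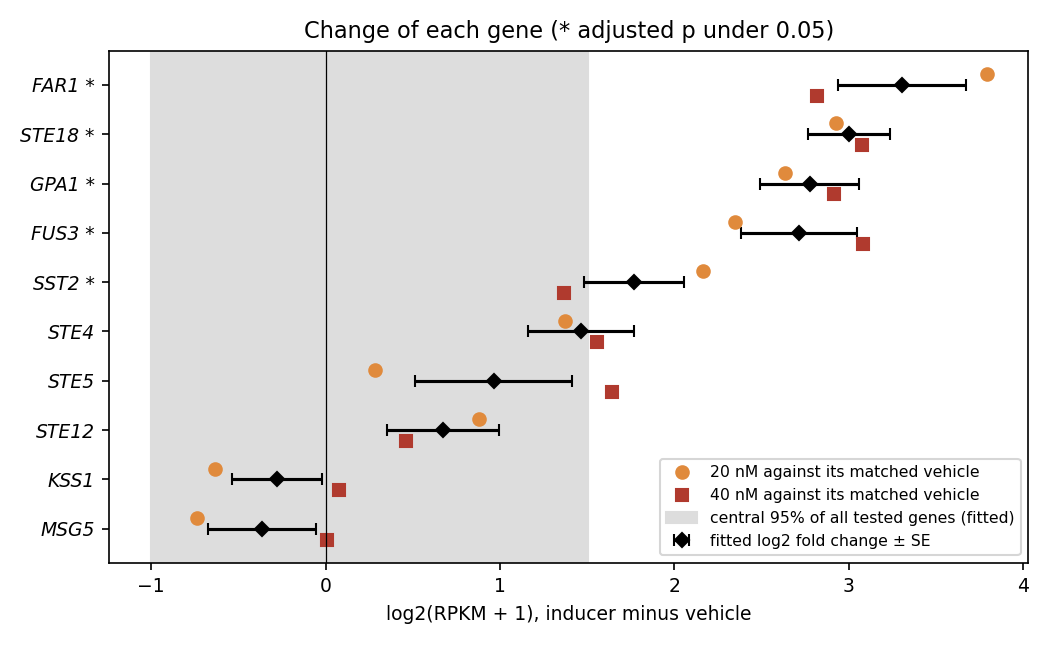
Change of each of the 10 genes on the log2(RPKM + 1) scale, inducer minus vehicle; diamonds are the fitted values with their SE, circles the 20 nM and squares the 40 nM library against its volume-matched vehicle library, and the grey band holds the central 95% of all tested genes (-1.001 to 1.503). FAR1, STE18, GPA1, FUS3 and SST2 have fitted values past the band, from 1.77 to 3.30, and KSS1 and MSG5 lie slightly below 0.

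By dose, each value is 1 library against 1 library and carries no test. The median log2 ratio of the 10 genes was 1.77 at 20 nM and 1.60 at 40 nM, against -0.10 and 0.07 over all tested genes. Neither dose gave the higher ratio throughout. FAR1 had ratios of 3.79 at 20 nM and 2.82 at 40 nM, SST2 2.17 and 1.37, and STE12 0.88 and 0.46. FUS3 had 2.35 and 3.08, GPA1 2.64 and 2.92, and STE5 0.28 and 1.64. For SST2 and GPA1 the Poisson intervals of the inducer libraries, which cover counting error only, did not overlap, in opposite directions. How often this held among all tested genes was not computed, so it is no result about dose. SST2 was higher at 20 nM, with an interval of 42.4 to 60.9 RPKM against 29.5 to 37.4 RPKM. GPA1 was higher at 40 nM, with 53.7 to 66.7 RPKM against 32.3 to 52.9 RPKM. The difference between the inducer libraries had an SD of 0.63 across all tested genes on the log2 scale, and that between the vehicle libraries 0.43.

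The order of levels within the pathway changed between groups, as RPKM is per length and allows genes to be set side by side. With vehicle KSS1 was highest at a mean of 29.1 RPKM (SD 5.76, n = 2), followed by MSG5, STE4, SST2, STE12, FUS3, STE18, GPA1, STE5 and FAR1. Ranges over the libraries overlapped in 7 of 9 neighbouring pairs in this order, and did not between KSS1 and MSG5 or between SST2 and STE12. With inducer FUS3 was highest at a mean of 66.8 RPKM (SD 5.67, n = 2), followed by STE18, GPA1, SST2, STE4, FAR1, KSS1, STE12, MSG5 and STE5. Here 6 of 9 neighbouring pairs overlapped, and the gaps lay between FAR1 and KSS1, KSS1 and STE12, and STE12 and MSG5. Among all 6679 genes, FUS3 went from percentile 29.0 of the vehicle level to percentile 67.7 of the inducer level, and FAR1 from 17.8 to 52.5. KSS1 went from 50.6 to 44.3.

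Ratios within a library do not depend on library scaling, and the shift between groups differed from pair to pair. The ratio of FUS3 to KSS1 was 0.395 and 0.261 in the vehicle libraries and 3.38 and 2.38 in the inducer libraries. The exact binomial intervals of 95%, which cover counting error only, were 0.246 to 0.618 and 0.144 to 0.450 with vehicle, and 2.15 to 5.46 and 1.91 to 2.99 with inducer, so the kinase with more RNA per length was KSS1 in each vehicle library and FUS3 in each inducer library. The ratio of GPA1 to STE4 was 0.562, 0.495, 1.46 and 1.36, and that of STE18 to STE4 was 0.658, 0.493, 2.06 and 1.52. Both ratios were below 1 with vehicle and above 1 with inducer, but the intervals reached past 1 in the vehicle library matched to 20 nM for both ratios, in the other vehicle library for STE18 and in the 20 nM inducer library for GPA1. The ratio of SST2 to GPA1 was 1.81, 1.74, 1.23 and 0.555, lowest in the 40 nM inducer library. That of FUS3 to MSG5 was 0.743, 0.520, 6.95 and 4.98. The ratio of FAR1 to STE5 was 0.256 and 1.01 in the vehicle libraries, which differ, and 4.35 and 2.37 in the inducer libraries. That of STE12 to its repressor DIG1 was 0.971, 0.797, 0.740 and 0.630, with overlapping intervals in all 4 libraries. With 2 libraries against 2, an exact permutation test of a ratio cannot give a two-sided p below 0.333, and none was run.

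**Figure D3:**
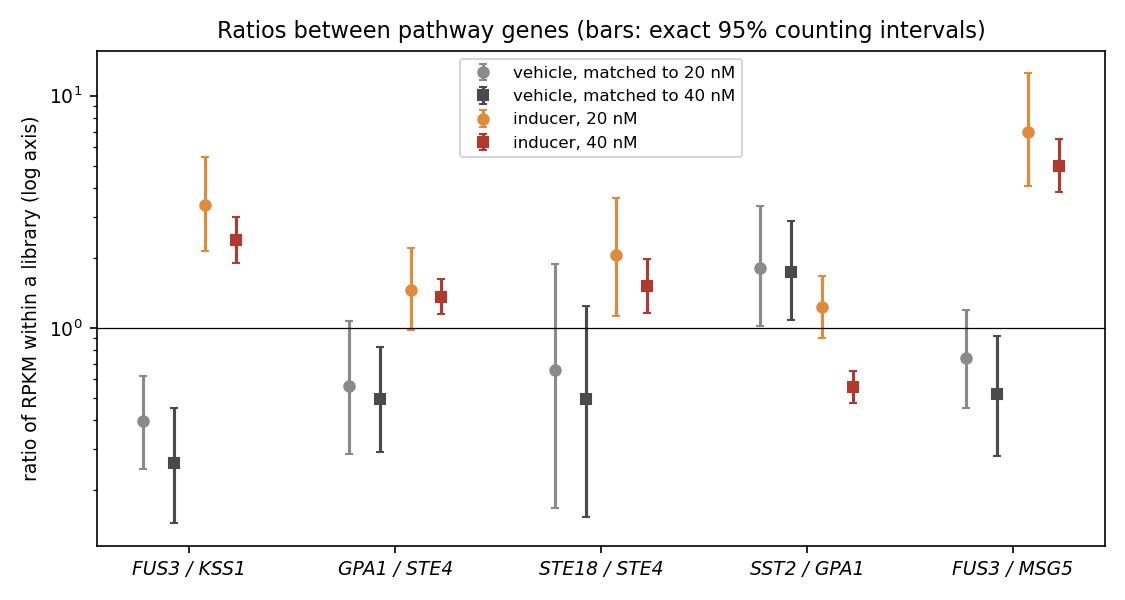
Ratios of RPKM between pairs of pathway genes within each library, on a log axis, with exact binomial intervals of 95% for counting error; the line marks equal levels. FUS3 to KSS1 sits below the line with vehicle (0.395 and 0.261) and above it with inducer (3.38 and 2.38).

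Genes around the core were described from lists. The receptors are STE2, which a cells use to bind alpha-factor, and STE3, which alpha cells use to bind a-factor. STE2 stood at 9.10, 13.7, 59.5 and 68.6 RPKM and rose (2.41 on the log2 scale, SE 0.27, adjusted p = 0.00518). STE3 stood at 20.8, 4.27, 73.1 and 67.3 RPKM and did not pass (2.73, SE 0.59, adjusted p = 0.0635), with vehicle libraries far apart. Leaving out 1 vehicle library moved this value to 1.71 without the one matched to 40 nM and to 3.76 without the one matched to 20 nM. STE3 was called in 7 of 14 alternative settings. Among the 7 were both fits without a vehicle library and both with a term for pairs of libraries. In those fits no gene's own spread counted.

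The relay between the G protein and the MAP kinases showed no called change. Over all tested genes 2.48% rose and 0.733% fell, so no call among so few genes says little about the relay. Of its 7 genes, CDC42, CDC24, BEM1, STE20, STE50, STE11 and STE7, 0 rose and 0 fell, with a median log2 fold change of 0.13 and a range of -0.24 to 0.39. CDC42, the GTPase of cell polarity, stood at 373, 370, 292 and 367 RPKM. STE50, an adaptor of the kinase STE11, stood at 62.6, 36.5, 22.4 and 71.5 RPKM, where the inducer libraries held both the lowest and the highest value. These 7 genes also serve polarity, osmotic or filamentous signalling. Whether this bears on their values was not tested.

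Against 2.48% of all tested genes, 1 rose of 4 genes that act with or on STE12. TEC1, its partner in filamentous growth, stood at 6.69, 7.96, 35.0 and 25.7 RPKM and changed by 1.90 on the log2 scale (SE 0.29, adjusted p = 0.0178). Without the 20 nM inducer library TEC1 did not pass (adjusted p = 0.0593). For all 4 genes the median was 0.64, and the repressors DIG1 and DIG2 and the cofactor MCM1 did not pass. Of 7 other negative regulators 1 rose, against the same 2.48%, with a list median of 0.18. It was BAR1, the protease with which a cells degrade alpha-factor, at 7.70, 9.71, 55.1 and 74.7 RPKM (2.75, SE 0.27, adjusted p = 0.00350), which is also among the a-cell markers.

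Other MAP kinase modules showed 0 calls in either direction among 8 tested genes, with a median of 0.05. With 2.48% rising and 0.733% falling over all tested genes, 0 of 8 says little about these modules. HOG1, the kinase of the osmotic stress response, stood at 115, 95.9, 150 and 223 RPKM, with a fitted change of 0.79 on the log2 scale (SE 0.27, adjusted p = 0.203). SLT2, the kinase of cell wall integrity, stood at 60.7, 56.5, 56.8 and 66.2 RPKM (0.07, SE 0.22, adjusted p = 0.923). SMK1, a kinase of sporulation, lay below the filter with at most 1.52 RPKM.

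Mating genes that pheromone is known to induce had a median log2 fold change of 2.64 among 11 tested genes. Of these 6 rose and 0 fell, and in all 11 both inducer libraries were above both vehicle libraries. Over all tested genes 2.48% rose, 0.733% fell and 23.0% lay above in this way. Of the 11, FUS1, FUS2, FIG1, FIG2, PRM1 and PRM2 had vehicle means under 5 RPKM and passed the filter only through their inducer libraries, so they had to be higher there. These 6 include 3 of the 6 that rose, and the counts and the median are a description only. FIG1, a membrane protein of mating, stood at 0.56, 1.38, 77.7 and 54.8 RPKM, with a log2 fold change of 5.11 (SE 0.37). PRM1 (4.95, SE 0.43) and FUS1 (4.27, SE 0.54), which act in cell fusion, followed, and FUS1 did not pass without the 20 nM inducer library (adjusted p = 0.0719), nor with a pseudocount of 0.1 (adjusted p = 0.0641). The letters TGAAACA were in 8 of the 12 promoters of this list, against 7.20% of all promoters. FUS1 and PRM1 held them, and FIG1, FIG2, PRM4 and KAR5 did not. On the other lists they were in the promoters of STE2, CDC42, DIG1, TEC1, BAR1 and AXL1. A link between these letters and the changes was not tested. Of 3 tested haploid-specific genes outside the pathway 0 were called. In 2 of them the inducer libraries were above both vehicle libraries, which held for 23.0% of tested genes. AXL1 and RME1 lay below the filter and were not tested. AXL1 stood at 0, 0.97, 4.26 and 4.51 RPKM and RME1 at 3.89, 0.91, 2.01 and 4.85 RPKM. NEJ1, a DNA end-joining factor repressed in diploids, stood at 3.39, 3.97, 10.5 and 22.6 RPKM (1.82, SE 0.45, adjusted p = 0.0873), and passed with limma-voom (adjusted p = 0.0389); its vehicle mean, too, was under 5 RPKM. RDH54, a recombination gene, stood at 10.7, 7.79, 15.3 and 18.4 RPKM (0.81, SE 0.31, adjusted p = 0.253).

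The cell cycle targets opposite FAR1 showed 0 calls among 4 genes, CLN1, CLN2, CLN3 and CDC28, with a median of -0.13. As 2.48% of all tested genes rose and 0.733% fell, 0 of 4 says little about them. CDC28, the cyclin-dependent kinase, stood at 207, 104, 77.7 and 161 RPKM, and CLN3, a G1 cyclin, at 25.3, 22.2, 38.7 and 16.1 RPKM. For CDC28 and CLN3 the groups overlapped.

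**Figure D4:**
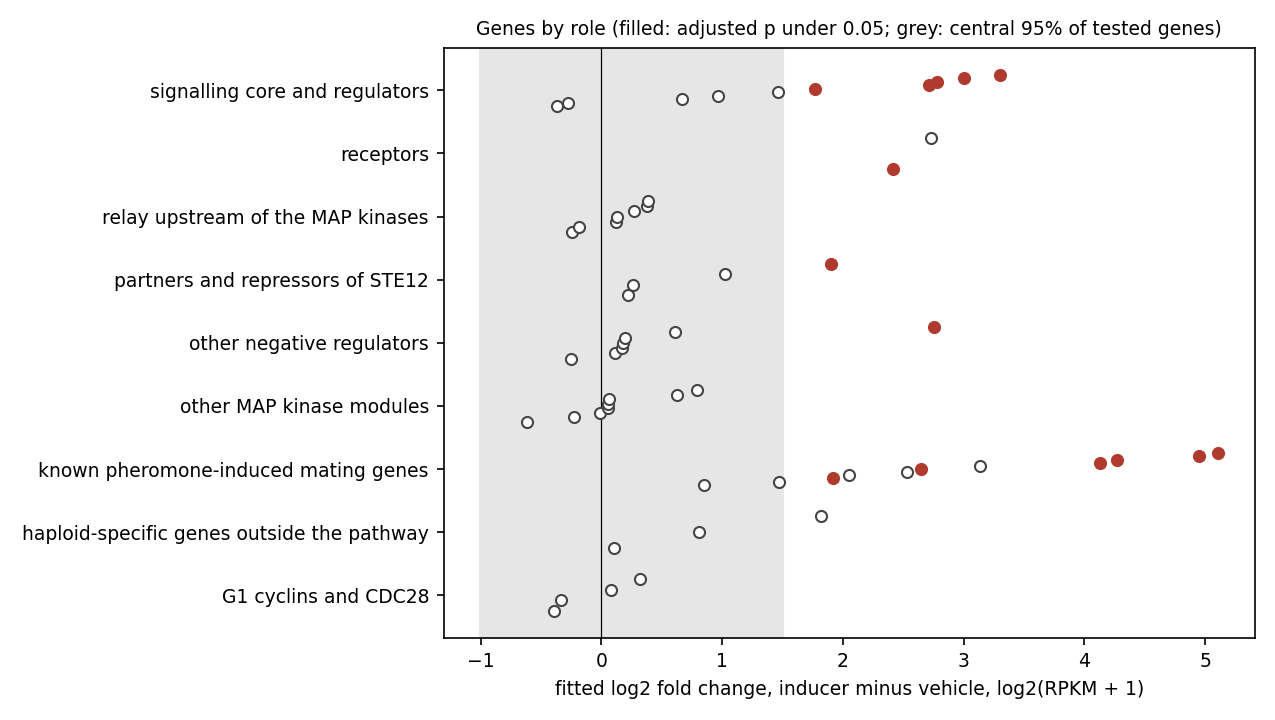
Fitted log2 fold changes of single genes by role, inducer minus vehicle; each point is a gene, filled where the adjusted p was under 0.05, and the grey band holds the central 95% of tested genes (-1.001 to 1.503). Over all tested genes 2.48% rose and 0.733% fell. Filled points lie in the signalling core (5 of 10), the receptors (1 of 2) and the STE12 partners (1 of 4). They also lie in the other negative regulators (1 of 7) and the pheromone-induced genes (6 of 11). FAR1 and 3 of these 6 passed the filter only through their inducer libraries. The relay has 0 of 7, the other MAP kinase modules 0 of 8, the haploid-specific genes 0 of 3 and the G1 cyclins with CDC28 0 of 4.

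The profile of the 10 genes over the 4 libraries, taken as their median log2(RPKM + 1) centred on the vehicle mean, was closest to those of HRI1, NCR1 and BFR1 among the other tested genes, at Euclidean distances of 0.11, 0.13 and 0.15. Of the 10 genes themselves SST2 (0.51) and STE4 (0.59) lay nearest to this profile and MSG5 (2.82) and KSS1 (2.70) farthest. HRI1 stood at 417, 378, 1184 and 1295 RPKM, NCR1, a vacuolar membrane protein, at 16.6, 15.6, 56.3 and 50.6 RPKM, and BFR1, an RNA-binding protein of polysomes, at 231, 255, 750 and 764 RPKM. The measure rests on 4 libraries and does not use the level of a gene.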

How the data were processed

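Values in the authors' deposited table have no unit in its header and were taken as RPKM. The depth of each library was recovered by a search for the depth that turns values into near-whole numbers of reads. Multiplied by that depth and the R64 coding length less 60 bases, 92.7% to 93.8% of values of up to 50 reads lay within 0.05 of a whole number. As depth was chosen for this, the share is no independent check. Read numbers and counting intervals rest on the recovered depth. STAR and SAMtools are named, without versions, in the submitters' processing notes. Not given in the sources used here are the counter, its strand setting, the build and the annotation. None of the 10 genes overlaps another gene in R64 or holds a 50-base window repeated elsewhere in it.

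The fit of inducer against vehicle used limma 3.58.1 (R 4.3.3) with a variance trend over all 4 libraries, without covariates, on log2(RPKM + 1). Tested were 5317 genes whose mean reached 5 RPKM. Adjusted p are Benjamini-Hochberg over all tested genes, with a threshold of 0.05. Fold changes on this scale understate the change of low genes. Reads carry no molecular identifiers, so intervals cover counting error only. Symbols came from R64, which matched 5994 of 6679 identifiers.

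The 10 genes and the 8 lists around them were chosen with earlier results of these data known. Named from the lists are up to 3 genes past the threshold by size of change, or up to 2 by level where none passed, and the 3 nearest profiles.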

Additional observations from a re-analysis of the deposited data

Results flagged for a closer look

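In 6 of the 30 genes named by rule the ratio to the volume-matched vehicle library had opposite signs at 20 and 40 nM, which also held for 2295 of 5317 tested genes (43.2%). Each dose is 1 library per treatment, so these differences were not tested. Of the 10 pathway genes KSS1 (log2 ratio -0.63 at 20 nM, 0.08 at 40 nM) and MSG5 (-0.73 and 0.01) were of this kind. Around the pathway, STE50 had -1.44 and 0.95, CDC28 -1.40 and 0.62, SLT2 -0.09 and 0.23, and CLN3 0.59 and -0.44. For STE50 and CDC28 the vehicle libraries also differed, at 62.6 and 36.5 RPKM and at 207 and 104 RPKM.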

How the results depend on the processing

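Across the alternatives the called members were FAR1, FUS3, GPA1, SST2 and STE18, with STE4 added in some, except that 4 passed where the mean had to be at least 20 RPKM (6 tested), 3 without the 20 nM inducer library and 0 with no filter. Leaving out 1 library at a time gave 3 to 6 members and 145 to 793 genes in all, against 171 with all libraries; the 793 came without the 40 nM inducer library. With no filter 0 genes passed in all, and 160 passed once genes at 0 throughout were left out. Limma-voom on recovered reads called 307 genes. With the matched dose as a replicate block 366 genes and 6 members passed; same-dose libraries did not deviate together (r = -0.205 across 5317 genes), and the crossed pairing, chosen after seeing the data, called 668 genes and 6 members. In both block fits, and in both fits without a vehicle library, limma set the spread from all genes together (5317 degrees of freedom, against 6.98 with all libraries), so no gene's own spread counted. Without a vehicle library the lone one was assumed to vary like the inducer pair. These calls say little about a single gene. STE4, with adjusted p = 0.000496 and 5.99e-05 in the block fits and 0.141 and 0.0140 without the 20 nM and 40 nM vehicle library, and STE3, with 7.46e-14 and 0.00879 without them, are such cases. The median dose ratio of the members at 20 nM was 1.557 against the other vehicle library and 1.483 with a pseudocount of 5; at 40 nM it was 1.77 and 1.247, and 1.751 with a pseudocount of 0.1. Uncalled values changed sign when 1 library was left out: STE50 ranged from -1.061 to 0.571, CDC28 from -0.909 to 0.129, SLT2 from -0.042 to 0.175 and CLN3 from -0.528 to 0.683, and CLN3 was -0.079 with limma-voom. The cause of these shifts was not tested. Depth limits the vehicle levels of STE18 (4 and 5 reads) and FAR1 (9 and 21 reads).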
